A study of Mus musculus with 15 samples.

Results

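The genes described here encode the machinery that displays peptides to T cells. They are the class II chains H2-Aa, H2-Ab1 and H2-Eb1, the invariant chain Cd74, the class II regulator Ciita and the peptide exchange chain H2-DMa. With them stand the class I genes B2m, Tap1 and Tap2 and the costimulatory ligand Cd86. They were taken by symbol, each from the brightest probe set annotated with that symbol alone, and all 10 were found among the 19296 genes measured, each with 1 such probe set. RNA was measured on 15 Affymetrix arrays of bone marrow cells sorted from wild-type C57Bl/6 mice. Haematopoietic stem cells (HSC, gated as Lin-, c-Kit+, Sca-1+, Flk2-, CD48- and CD150+) came from young mice of 6 to 12 weeks on 5 arrays and from old mice of 22 to 30 months on 3 arrays. Granulocyte/macrophage progenitors (GMP, gated as Lin-, c-Kit+, Sca-1-, FcγR+ and CD34+) came from the same age ranges on 4 young and 3 old arrays. All groups were sorted in a repeated pass, their RNA was amplified before labelling, and every array was labelled male. Whether each array held cells of 1 mouse or of several is not stated, so the p-values reflect array-to-array spread, which may be technical.

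In the class II route, an alpha and a beta chain are assembled on the invariant chain in the endoplasmic reticulum and carried to endosomes, where the invariant chain is degraded and H2-DM exchanges its remnant for peptides. In the class I route, the Tap1-Tap2 transporter moves proteasome products into the endoplasmic reticulum, where they bind heavy chains held by beta-2 microglobulin, the product of B2m. Class II is the mark of dendritic cells, B cells and macrophages, and its transcription depends on Ciita, which is recruited by factors bound to short elements ahead of the class II genes. C57Bl/6 mice carry the H2-b haplotype, which makes the A molecule (H2-Aa with H2-Ab1) but no E alpha chain, so H2-Eb1 has no partner in this strain.

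The promoters of 3 of these genes are shown because they hold the letters of the Y box. The Y box is an element ahead of class II genes that is bound by the factor NF-Y, whose subunit genes were also measured. RefSeq promoter windows (GRCm38.p6, 250 bases before to 50 after the transcription start) were at hand for 5 of the 10 genes. Capitals mark the Y box letters CTGATTGG, or CCAATCAG where they lie on the opposite strand, and the cAMP response element TGACGTCA.
H2-Aa, chr17:34287774-34288073, minus strand: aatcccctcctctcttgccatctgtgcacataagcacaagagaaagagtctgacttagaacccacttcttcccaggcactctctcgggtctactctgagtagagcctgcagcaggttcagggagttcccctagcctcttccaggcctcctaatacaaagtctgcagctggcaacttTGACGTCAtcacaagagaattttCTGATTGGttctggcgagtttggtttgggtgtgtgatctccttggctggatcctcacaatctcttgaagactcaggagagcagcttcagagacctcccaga
H2-Eb1, chr17:34305617-34305916, plus strand: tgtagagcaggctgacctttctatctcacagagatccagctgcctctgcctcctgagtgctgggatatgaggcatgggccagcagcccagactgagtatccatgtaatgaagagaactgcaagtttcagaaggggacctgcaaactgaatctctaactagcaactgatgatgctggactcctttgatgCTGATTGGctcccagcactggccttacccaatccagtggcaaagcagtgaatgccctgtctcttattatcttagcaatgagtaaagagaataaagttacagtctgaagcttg
Tap1, chr17:34187306-34187605, plus strand: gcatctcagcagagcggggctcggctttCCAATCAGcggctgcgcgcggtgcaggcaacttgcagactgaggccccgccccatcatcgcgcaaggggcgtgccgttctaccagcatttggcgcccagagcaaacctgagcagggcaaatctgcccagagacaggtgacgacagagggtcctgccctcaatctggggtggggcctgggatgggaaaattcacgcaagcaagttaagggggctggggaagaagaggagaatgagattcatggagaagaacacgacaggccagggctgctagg
The Y box began at position -51 from the start in H2-Aa and at -62 in H2-Eb1. In Tap1, a class I gene, the same letters lay on the opposite strand at -222. The Tap1 window shares 275 of its 300 bases with that of the neighbouring immunoproteasome gene Psmb9, where the letters are at -11. Searched on both strands, CTGATTGG was present in 4.10% of the 32851 promoter windows in the table and TGACGTCA in 1.79%. The windows of B2m and H2-DMa held neither, and that of B2m held the core of the interferon-stimulated response element at -139, present in 3.44% of windows. None of the 5 genes held the gamma-activated site letters TTCNNNGAA, which were in 8.30% of windows. A match is a description of letters and not of binding.

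The values are log2 expression as deposited, so a difference of 1 is a doubling, and a gene was called where its limma p-value, adjusted over all 19296 genes, was under 0.05. Of known markers, all 5 of HSC were called higher and all 7 of GMP lower in young HSC than in young GMP. In old mice 5 HSC markers were called higher and 6 GMP markers lower in HSC. With age in HSC, 2 of 7 sort markers were called lower and 0 higher, where 9.22% of all genes were called lower. Flt3, the gene of Flk2, read 8.25 to 8.65 in young HSC and 7.65 to 7.88 in old HSC. It read 7.65 to 7.84 in young GMP and 8.33 to 8.73 in old GMP. Cd34 read 10.15 to 10.55 in young and 9.12 to 9.58 in old HSC. The part of the gates in the age differences was not tested. Some arrays stood apart before any comparison was made. Xist, which is transcribed in female cells, read 8.92 to 11.51 on 7 of the 9 young arrays and 4.72 to 5.84 on the other young arrays and all 6 old ones, against the male label. Young HSC replicate 4 and young GMP replicate 4 had the lowest means of the Y-linked genes, at 4.94 and 5.20, while the other arrays read 7.12 to 8.80. Young HSC replicates 2, 3 and 5 and young GMP replicates 2 and 3 had high Xist together with a Y-linked mean of 7.12 to 8.47. These arrays thus carried signals of both sexes, and what mice their cells came from was not tested. The interquartile range of all values on an array ran from 1.96 to 2.33 in old HSC and from 2.21 to 2.69 in young HSC, with young HSC replicate 4 the lowest of its group. The part of array quality and of sex-linked signal in the age differences was not tested beyond the values given with them.

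Class II genes other than Ciita were higher in young HSC than in young GMP. H2-Aa, the alpha chain of the A molecule, showed the widest gap of the 10 genes. It read 10.34, 10.74, 10.74, 8.37 and 10.85 on the 5 young HSC arrays and 6.12, 6.97, 6.29 and 6.55 on the 4 young GMP arrays. Every young HSC array lay above every young GMP array, although replicate 4 of the HSC sat more than 1 log2 unit below the rest of its group. The difference was 3.73 ± 0.40 (SE), which is 13.2-fold with a 95% confidence interval of 7.43 to 23.6 (adjusted p = 5.92e-07). H2-Aa lay below the median gene on all 4 young GMP arrays and below the lower quartile on 1, so the size of this difference is not exact. In bulk samples such as these, fewer cells carrying a transcript and less of it per cell cannot be told apart.

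Cd74 followed the same pattern. Its young HSC values were 9.09, 8.84, 8.97, 7.33 and 8.68, and its young GMP values were 6.30, 6.65, 6.46 and 6.63. The groups did not overlap, and the lowest young HSC array was again replicate 4. The mean was 4.20-fold higher in HSC (log2 difference 2.07 ± 0.30, adjusted p = 2.14e-05). Cd74 lay below the median gene on all 4 young GMP arrays, so this size rests on weak readings there.

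H2-Ab1, the beta chain that pairs with H2-Aa, averaged 10.24 ± 0.80 (SD) in young HSC and 8.63 ± 0.20 in young GMP, a 3.07-fold difference (adjusted p = 0.00110). Its groups touched through a single array, since young HSC replicate 4 read 8.84 and the highest young GMP array 8.86. H2-Eb1 was 2.40-fold higher (8.81 ± 0.72 against 7.55 ± 0.10, adjusted p = 0.000593), and H2-DMa 1.70-fold higher (10.23 ± 0.47 against 9.46 ± 0.35, adjusted p = 0.00569). Both also overlapped only through young HSC replicate 4. Ciita, the regulator of these genes, read 6.69 to 7.05 in young HSC and 6.64 to 6.90 in young GMP. The groups overlapped and the test was not passed (log2 difference 0.17, interval -0.05 to 0.39, adjusted p = 0.263). Its probe set lay below the median gene of the array on all 15 arrays, so a difference in a weak transcript could escape it.

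**Figure D1:**
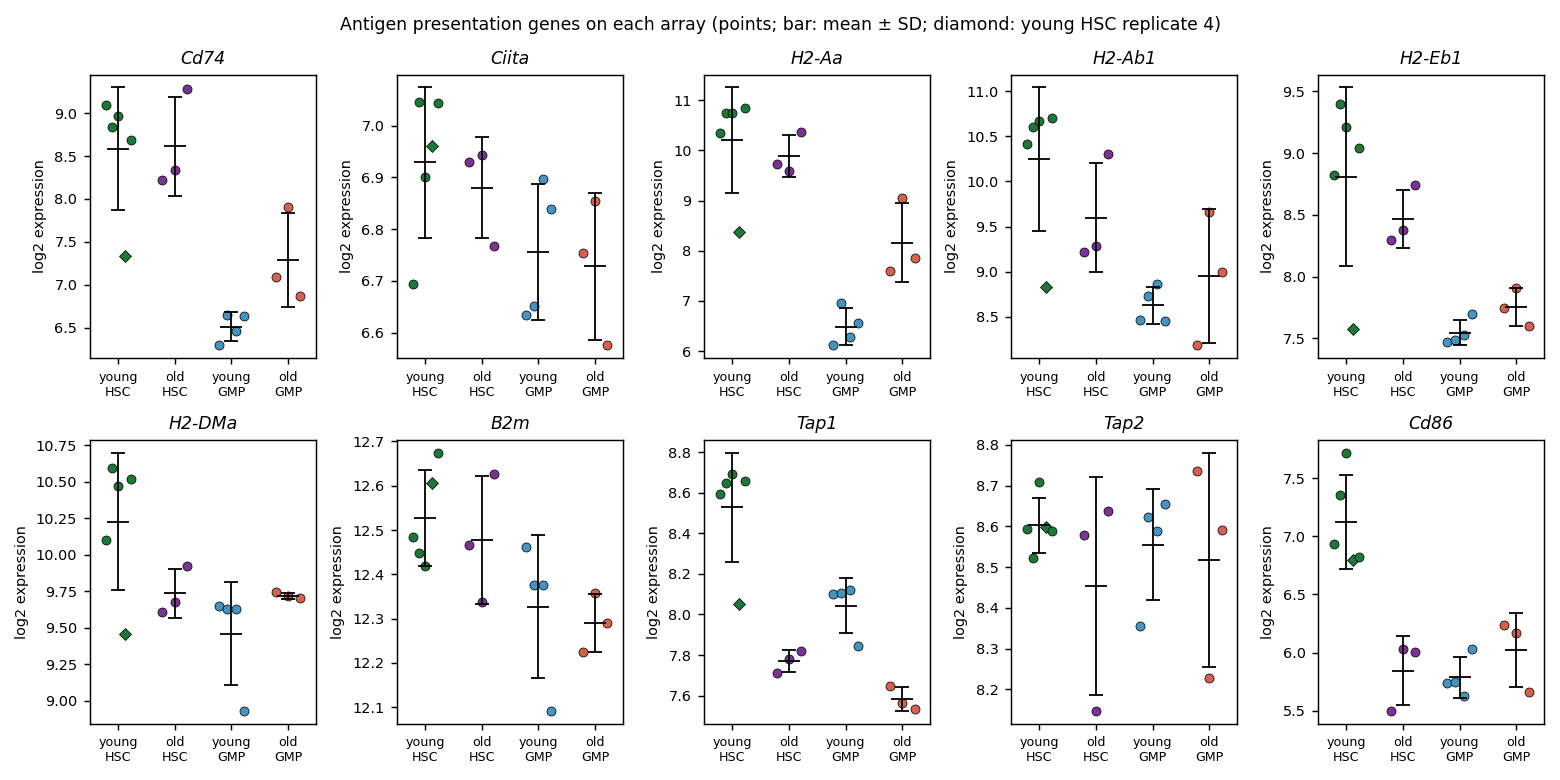
Log2 expression (vertical axis, a separate scale in each panel) of the 10 antigen presentation genes on every array, by group. Points are arrays, bars show the mean and SD, and the diamond marks young HSC replicate 4, which is far below the other young HSC arrays in Cd74, H2-Aa, H2-Ab1, H2-Eb1, H2-DMa and Tap1 and among them in Ciita, B2m and Tap2.

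In all, 7 of the 10 genes were called between young HSC and young GMP, all higher in HSC, where 24.6% of all genes were called and 13.6% were called higher. The other called genes were Cd86 and Tap1, and those not called were Ciita, B2m and Tap2. Groups did not overlap for 3 of the 10 (Cd74, H2-Aa and Cd86, all higher in HSC), against 21.3% of all genes in either direction and 11.7% in that one. Leaving out any 1 array of these groups kept the count at 7. Without young HSC replicate 4 the H2-Aa difference was 18.2-fold and that of Cd74 5.22-fold.

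In old mice the gap was called for fewer of these genes. Cd74 and H2-Aa were called higher in old HSC than in old GMP, 2 of the 10 genes against 22.2% of all genes (9.25% called higher). H2-Aa read 9.72, 9.59 and 10.37 in old HSC and 7.59, 9.05 and 7.85 in old GMP. The groups did not overlap, and old GMP replicate 2 was closest to the HSC arrays. The difference was 3.32-fold (log2 1.73 ± 0.48, adjusted p = 0.0127). Cd74 read 8.23, 8.34 and 9.28 in old HSC and 7.09, 7.91 and 6.87 in old GMP, a 2.50-fold difference (adjusted p = 0.0104). Neither call held without old HSC replicate 3 or without old GMP replicate 3, and that of H2-Aa was also lost without old GMP replicate 1. The highest adjusted p was 0.0682 for Cd74 and 0.0697 for H2-Aa, and their lowest differences over these and the other settings were 0.92 and 1.44.

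H2-Eb1 did not overlap between old HSC and old GMP (8.30 to 8.74 against 7.60 to 7.91) but did not pass the test (0.72 ± 0.30, adjusted p = 0.0996). It was called in 4 of 15 other settings. These were array weights, the interquartile range as a covariate, both young arrays numbered 4 left out, and only the groups compared. H2-Ab1 differed by 0.65 (interval -0.21 to 1.51, adjusted p = 0.325), with 1 old GMP array at 9.67, above 2 of the 3 old HSC arrays. H2-DMa differed by 0.02 (interval -0.48 to 0.51). Tap1 also had groups that did not overlap, at 7.71 to 7.82 against 7.53 to 7.65 (adjusted p = 0.468), which makes 4 of 10 genes, all higher in HSC, against 34.7% of all genes in either direction and 16.3% in that one. Whether the gap between cell types differed with age is the same quantity as the difference of the age effects given further on.

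**Figure D2:**
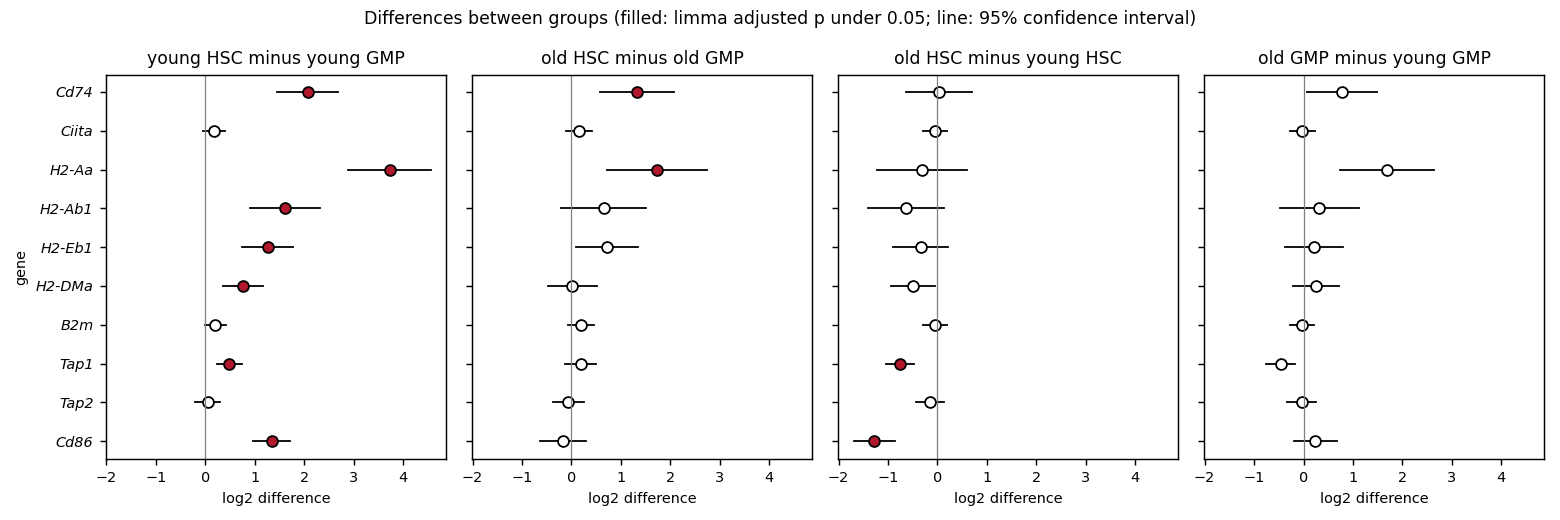
Log2 differences (horizontal axis) of the 10 genes in the 4 comparisons, with 95% confidence intervals, filled where the limma adjusted p is under 0.05. Of the 10 genes, 7 are filled between young HSC and young GMP, 2 between the old groups (Cd74 and H2-Aa), 2 with age in HSC (Tap1 and Cd86) and 0 with age in GMP.

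The order of the group means was young HSC, old HSC, old GMP and young GMP, from high to low, for H2-Aa, H2-Ab1, H2-Eb1 and H2-DMa. For Cd74 the HSC groups stood at 8.61 (old) and 8.58 (young), a difference of 0.03 with an interval of -0.64 to 0.70. Of the neighbours in the order of H2-Aa, old HSC and old GMP passed the test. For Cd74 the neighbours across cell types were young HSC and old GMP, a pair that was not tested. The order within HSC and within GMP was not called for any of these 5 genes.

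Of the class I genes, Tap1 was called in 2 comparisons and B2m and Tap2 in none. B2m, the light chain shared by class I molecules, lay between 12.09 and 12.67 on all 15 arrays. Its largest difference was 0.20 between young HSC and young GMP (interval -0.02 to 0.42, adjusted p = 0.181), and after quantile normalization it was called higher in HSC at both ages (adjusted p = 0.0498 in young and 0.0118 in old mice). Tap2 lay between 8.15 and 8.74, with differences of at most 0.15 in size and a smallest adjusted p of 0.450. Tap1, the other subunit of the same transporter, was 1.40-fold higher in young HSC than in young GMP (8.53 ± 0.27 against 8.04 ± 0.13, adjusted p = 0.00550), and it was lower in old than in young HSC.

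With age in HSC, Tap1 and Cd86 were the called genes, both lower in old cells. They were 2 of 10 genes, where 11.5% of all genes were called and 9.22% were called lower. Tap1 read 8.59, 8.65, 8.70, 8.05 and 8.66 on the young HSC arrays and 7.71, 7.78 and 7.82 on the old ones. The groups did not overlap, and all 3 old arrays lay within 0.10 of each other. Tap1 fell by 0.76 ± 0.13 on the log2 scale, which is 1.69-fold (interval 1.39 to 2.05, adjusted p = 0.00341). It was called in 16 of 17 other settings and not with the interquartile range of the array as a covariate (difference -0.51, adjusted p = 0.127).

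Cd86, a ligand of CD28 and CTLA-4 on T cells, read 6.93, 7.36, 7.72, 6.79 and 6.82 in young HSC and 5.50, 6.03 and 6.00 in old HSC. All 5 young arrays were above all 3 old ones, and Cd86 fell by 1.28 ± 0.20, or 2.43-fold (interval 1.82 to 3.24, adjusted p = 0.00193). On all old HSC, young GMP and old GMP arrays its value was below the lower quartile of genes on that array, so young HSC were the group with a reading above that level and the size of the difference is not exact. The call held in all 16 settings that kept the gene, with adjusted p up to 0.0327, and the filter on dim genes removed it. Young HSC were also 2.53-fold above young GMP (5.74, 5.75, 5.62 and 6.03, adjusted p = 1.25e-05). The groups of Tap1 and of Cd86 did not overlap with age in HSC, 2 of 10 genes, both lower, against 12.8% of all genes in either direction and 7.69% in that one.

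Young HSC replicate 1 had the low Xist reading of the old arrays. On that array Tap1 read 8.59 and Cd86 6.93, both above every old HSC array. It is 1 array, and the part of sex-linked signal in the Tap1 and Cd86 differences was not tested. The interquartile range moved with age in HSC as given above, and its part in the Tap1 difference was not tested beyond the loss of the call.

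The class II genes were not called with age in HSC from all arrays in the model of group means alone. With all arrays kept, array weights called H2-Aa, H2-Ab1, H2-Eb1 and H2-DMa lower, the Y-linked mean as a covariate H2-Ab1 and H2-DMa, and the replicate block H2-DMa. H2-Aa averaged 10.21 ± 1.05 in young and 9.89 ± 0.41 in old HSC (adjusted p = 0.632). H2-Ab1 averaged 10.24 ± 0.80 and 9.60 ± 0.61 (adjusted p = 0.230), and H2-Eb1 8.81 ± 0.72 and 8.47 ± 0.23 (adjusted p = 0.387). H2-DMa differed by -0.49 with an interval of -0.93 to -0.05 and an adjusted p of 0.125. The SD of the young group in each of these rested on replicate 4.

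Against the other 4 young HSC arrays, replicate 4 was low at 7.33 against 8.90 ± 0.17 in Cd74, at 8.37 against 10.67 ± 0.22 in H2-Aa, at 8.84 against 10.60 ± 0.13 in H2-Ab1 and at 7.58 against 9.12 ± 0.25 in H2-Eb1. It was also low in H2-DMa, at 9.46 against 10.42 ± 0.22, and in Tap1, at 8.05 against 8.65 ± 0.04. Ciita, B2m and Tap2 were within 0.10 of the mean of the others. The same array had the lowest mean of the 5 HSC markers in its group (9.75, others 10.18 to 10.36) and the highest mean of the macrophage and monocyte markers among HSC (6.98, other HSC arrays 6.42 to 6.81). Its GMP marker mean of 7.04 lay within the range of the other young HSC arrays. Among these markers Fcgr3 was high at 7.01 (others 6.02 to 6.36) and Prtn3 low at 7.60 (8.54 to 8.73). Its dendritic cell marker mean was the highest of young HSC (6.80, others 6.34 to 6.50), and its B cell marker mean of 6.32 was within the others. Cd48, which the HSC gate excludes, read 7.56 on it (others 5.95 to 6.47). The lower quartile of genes was 6.36 on this array and 6.11 to 6.24 on the other young HSC arrays, so means of dim markers are not on the same scale. The part of array scale in the marker means, and of these marker readings in its class II levels, was not tested.

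Without replicate 4, the age comparison in HSC called 6 of the 10 genes, all lower in old HSC, where 27.5% of all genes were called and 17.9% were called lower. H2-Ab1 fell by 1.00 ± 0.26 (adjusted p = 0.0102), H2-Aa by 0.78 ± 0.27 (adjusted p = 0.0397), H2-Eb1 by 0.65 ± 0.14 (adjusted p = 0.00292) and H2-DMa by 0.68 ± 0.16 (adjusted p = 0.00508). Tap1 fell by 0.88 and Cd86 by 1.36. Cd74 differed by -0.28 (interval -0.76 to 0.20, adjusted p = 0.351) and stayed uncalled, as did Ciita, B2m and Tap2. Old HSC replicate 3 was the highest of the 3 old arrays in Cd74 (9.28), H2-Aa (10.37), H2-Ab1 (10.30) and H2-Eb1 (8.74), so the H2-Aa groups still overlapped. With the interquartile range as a covariate and all arrays kept, none of the class II genes was called, and the difference of H2-Aa was 0.35 (adjusted p = 0.885) and that of Cd74 0.57, both then above zero.

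**Figure D3:**
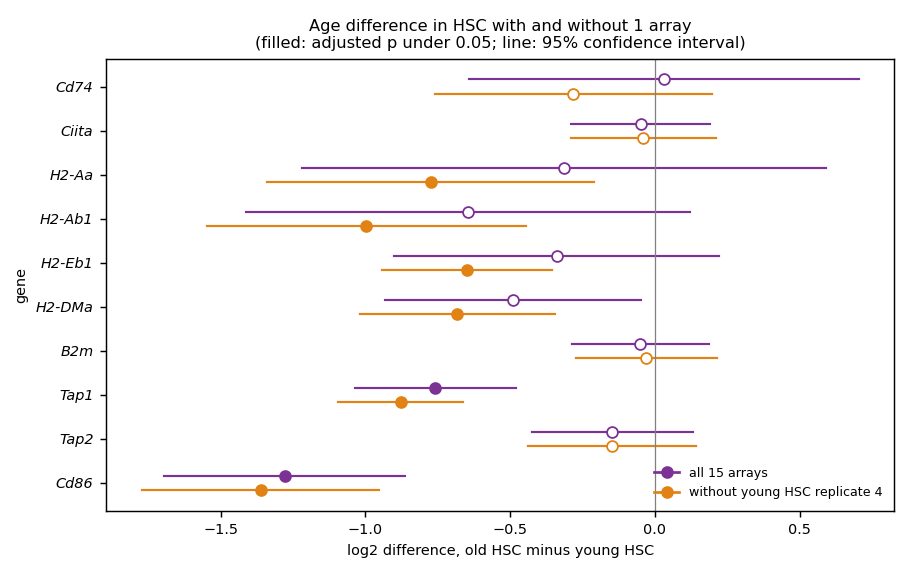
Log2 difference between old and young HSC (horizontal axis) for each of the 10 genes, with 95% confidence intervals, from all 15 arrays and without young HSC replicate 4. Filled points have an adjusted p under 0.05, and 2 genes are filled with all arrays and 6 without that array.

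With age in GMP, no gene of the 10 was called, and 0% of all genes were. In this comparison limma gave 870 of the 19296 genes an unadjusted p under 0.05, and the smallest adjusted p was 0.294. That is fewer genes than a threshold of 0.05 would pass on average if no gene differed. Of the 10 genes, 3 had an unadjusted p under 0.05. Single genes did separate. H2-Aa read 6.12, 6.97, 6.29 and 6.55 in young GMP and 7.59, 9.05 and 7.85 in old GMP, so every old array was above every young one (difference 1.68 ± 0.45, unadjusted p = 0.00148, adjusted p = 0.666). As all young GMP arrays read H2-Aa below the median gene, the size of this difference is not exact. Cd74 also did not overlap, at 6.30 to 6.65 against 6.87 to 7.91 (0.78 ± 0.34, adjusted p of 1.00). Tap1 did not overlap in the other direction, at 7.84 to 8.12 in young and 7.53 to 7.65 in old GMP (-0.46 ± 0.14, adjusted p = 0.881).

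H2-DMa had no overlap either, with 9.70 to 9.74 in old GMP and 8.93 to 9.65 in young GMP, where replicate 4 was the low array. These 4 of 10 genes compare with 6.83% of all genes whose young and old GMP arrays did not overlap. H2-Ab1, the partner chain of H2-Aa, did overlap, since old GMP replicate 1 read 8.18, below all 4 young arrays. The old GMP arrays spanned 1.03 in Cd74, 1.46 in H2-Aa and 1.48 in H2-Ab1, but 0.31 in H2-Eb1 and 0.04 in H2-DMa, and replicate 2 was the highest of the 3 in Cd74, H2-Aa, H2-Ab1 and H2-Eb1.

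The difference between the age effects in HSC and in GMP was called for Cd86 alone, 1 of 10 genes, lower in HSC, against 0.0933% of all genes in either direction and 0.0674% in that one. Its effect in HSC was 1.51 ± 0.29 below that in GMP (adjusted p = 0.0464), where its difference with age was 0.24 ± 0.21. As Cd86 lay below the lower quartile of genes on every GMP array, it had little room to fall there, and the size of this contrast is not exact. The call held in 7 of 22 other settings, among them the fit without young HSC replicate 4, and was lost on leaving out any other single array. For H2-Aa, the effect in HSC was 2.00 ± 0.63 below that in GMP (adjusted p = 0.286). Without young HSC replicate 4 this became -2.46 ± 0.38 (adjusted p = 0.00653), and H2-Eb1 was then called at -0.85 ± 0.20 (adjusted p = 0.0472).

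Within groups, Cd74, H2-Aa, H2-Ab1 and H2-Eb1 moved together from array to array, in part through 1 array. Deviations from the group mean correlated at r = 0.92 between H2-Aa and H2-Ab1, 0.90 between H2-Aa and Cd74 and 0.84 between Cd74 and H2-Eb1, over 15 arrays that share their amplification and array quality. Without young HSC replicate 4 the same pairs gave 0.82, 0.76 and 0.56, and H2-Ab1 with H2-Eb1 went from 0.81 to 0.48. The values of H2-DMa with these 4 genes were 0.58 to 0.75 with that array and 0.02 to 0.35 without it. Ciita gave r between -0.11 and 0.10 against each of the class II genes, H2-DMa included, and without that array 0.43 against H2-Eb1, 0.22 against H2-Aa and -0.07 to 0.05 against the others. H2-DMa tracked Tap1 most closely, at 0.93 with and 0.89 without that array. These correlations describe the arrays and were not tested.

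**Figure D4:**
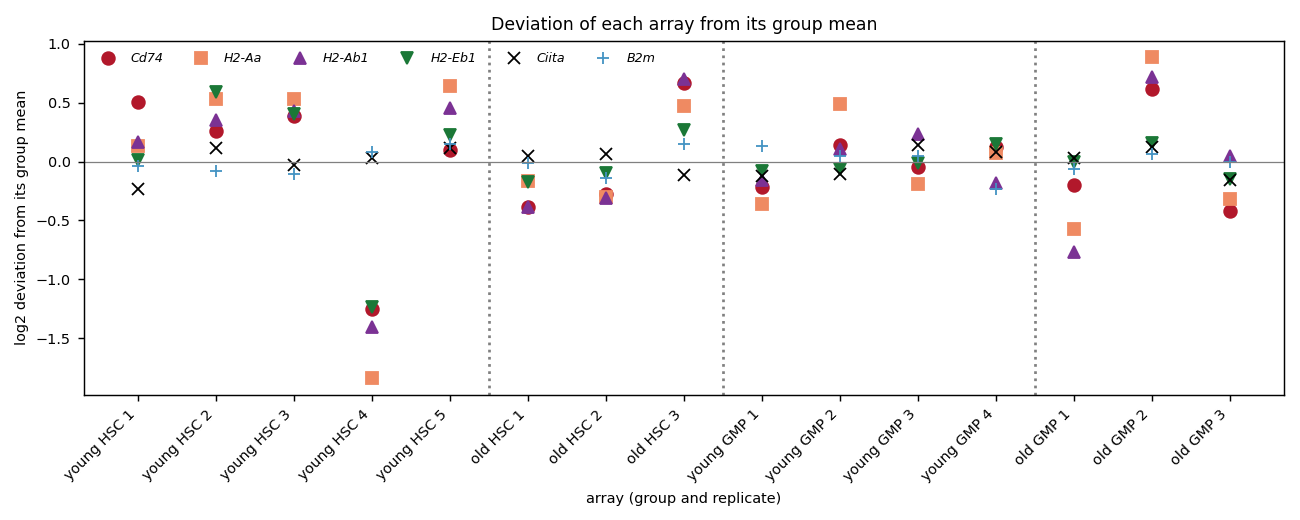
Deviation of each array (horizontal axis) from the mean of its group, in log2 units, for Cd74, H2-Aa, H2-Ab1, H2-Eb1, Ciita and B2m. The 4 class II genes leave the zero line on the same arrays, lowest on young HSC replicate 4 and high on old HSC replicate 3 and old GMP replicate 2, while Ciita and B2m stay close to it.

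The genes whose deviations were most like the mean of Cd74, H2-Aa, H2-Ab1 and H2-Eb1 over the 15 arrays were Cap1 (r = 0.97, and 0.90 without young HSC replicate 4), Id2 (0.95 and 0.85), Nfil3 (0.92 and 0.77), Pycrl (0.91 and 0.75) and Art4 (0.91 and 0.68). Cap1 encodes an actin-binding protein, Id2 an inhibitor of basic helix-loop-helix factors and Nfil3 a basic leucine zipper factor. For the mean of B2m, Tap1 and Tap2 they were Pank2, Tmem179b, Tor4a, Bmi1 and Mrpl27, with r from 0.91 to 0.93.

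Other genes of the pathway were taken from 7 lists, of which 53 genes were measured. With age in HSC, 11 of them (of all genes, 9.22%) were called lower and 0 higher, and their median difference was -0.16 where that of all genes was 0.03. Leaving out young HSC replicate 4 gave 17 lower and 2 higher (of all genes, 27.5% called and 17.9% lower), and leaving out old HSC replicate 2 gave 1 lower. The interquartile range as a covariate gave 1 lower and 0 higher, with a median difference of 0.03. Quantile normalization gave 3 lower and 1 higher, with a median of -0.004, where 1310 of all 19296 genes were called. The gene called in all 17 other settings was Ctss, which encodes cathepsin S, the protease that trims the invariant chain. Ctss read 8.48, 8.95, 9.08, 8.94 and 8.91 in young HSC and 7.40, 7.60 and 6.92 in old HSC. It fell by 1.57 (2.96-fold, adjusted p = 0.000166), with no overlap and with young HSC replicate 4 among its group.

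The transcription factors of class II genes gave 3 of 7 called lower with age in HSC, against 9.22% of all genes. All 3 are subunits of NF-Y, the factor of the Y box, and a link to the genes whose promoters are shown was not tested. Nfyb fell by 0.83 (adjusted p = 0.0112), Nfyc by 0.48 (adjusted p = 0.0162) and Nfya by 0.42 (adjusted p = 0.0451). Nfyb was called in 14, Nfyc in 12 and Nfya in 9 of 17 other settings, and none of them with the interquartile range as a covariate. Nfyb read 8.14 to 8.24 in old HSC and 8.46 on young HSC replicate 4, below the 9.07 to 9.29 of the other young arrays. Rfx5, Rfxank, Rfxap and Creb1, the other factors of the list, were not called.

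In class I loading and processing, 4 of 12 genes were called lower with age in HSC, a direction in which 9.22% of all genes were called. They were the immunoproteasome subunits Psmb10 (-0.65) and Psmb9 (-0.59) and the proteasome activator subunits Psme2 (-0.65) and Psme1 (-0.42), with adjusted p between 0.0243 and 0.0432. Of the class I heavy chains, 1 of 8 was called lower, H2-M3, which presents formylated peptides (-0.67, adjusted p = 0.0272). Tnfsf9, the ligand of 4-1BB, was the called gene among 9 of costimulation and adhesion (-0.62, adjusted p = 0.0277). Irf2, an interferon regulatory factor, was that among 7 of the interferon gamma response (-0.46, adjusted p = 0.0227). Each of these 7 genes lost its call in 7 to 9 other settings, the interquartile range among them. In class II chains and chaperones 0 of 3 were called, and 2 had an unadjusted p under 0.05. H2-Oa, the alpha chain of the H2-DM inhibitor H2-DO, differed by -0.41 (interval -0.74 to -0.07) and was not called after adjustment. H2-Eb2 went the other way, by 0.29, and was not called either (adjusted p = 0.144). It read 6.02 to 6.37 in young and 6.40 to 6.65 in old HSC, below the median gene on all these arrays.

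**Figure D5:**
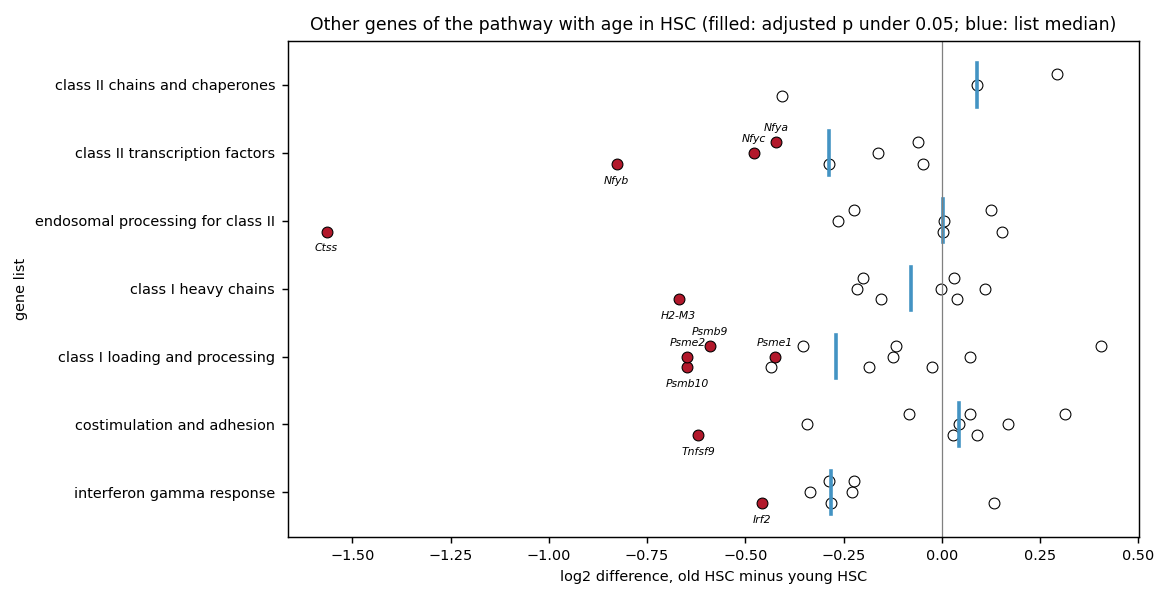
Log2 difference between old and young HSC (horizontal axis) of the 53 measured pathway genes, by list. Filled points have an adjusted p under 0.05, the blue line is the median of the list, and all 11 filled points lie below zero, with Ctss farthest at -1.57.

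With age in GMP, 0 of the 53 pathway genes were called, and 1 had an unadjusted p under 0.05 in limma. The difference between the age effects was called for 1, against 0.0933% of all genes. It was Ctss (-1.53, adjusted p = 0.0257), which held in 12 of 23 other settings.

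Between young HSC and young GMP, 16 of the 53 were called higher and 7 lower in HSC, where 24.6% of all genes were called and 13.6% called higher. Among heavy chains 4 of 8 were higher, with Mr1, which presents vitamin B metabolites, at 3.17-fold and H2-Q4 at 1.81-fold. Of costimulation and adhesion genes 5 of 9 were higher, with Tnfsf4, the OX40 ligand, at 2.78-fold and Cd274, which encodes PD-L1, at 2.09-fold. Tnfsf4 lay below the lower quartile of genes on all 4 young GMP arrays, so the size of its difference is not exact. H2-Oa was 1.63-fold higher (adjusted p = 0.00126) and Rfx5, a subunit of the complex that recruits Ciita, 1.43-fold higher (adjusted p = 0.0136). In the endosomal list Ctsl was 1.73-fold higher, while Ctss was 1.70-fold and Ifi30, a thiol reductase of endosomes, 1.78-fold lower in HSC.

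The interferon gamma response split. Of its 7 genes 4 were higher in young HSC, with Irf2 at 2.78-fold, and 3 were lower, namely Irf8 (4.52-fold), Ifngr1 (2.35-fold) and Ifngr2 (2.20-fold), both subunits of the interferon gamma receptor. The chaperones Calr and Pdia3 were also lower in HSC, by 1.75-fold and 1.41-fold. In old mice 11 of the 53 were called higher and 9 lower, where 22.2% of all genes were called and 9.25% called higher. Ctss was then 4.93-fold lower in HSC than in GMP (adjusted p = 7.29e-08), and Nfyb 1.93-fold lower (adjusted p = 0.00177).

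Markers of the cell types that bear class II were read on the same arrays. The lineage antibodies of the sort included Mac1, Gr-1 and B220, and no antibody against CD11c is named. Of all genes, 24.6% were called between young HSC and young GMP and 13.6% called higher in HSC. Of 12 dendritic cell markers, 1 was called higher (Tcf4) and 1 lower (Clec10a) in young HSC than in young GMP. The list mean was 6.34 to 6.80 against 6.43 to 6.83. On all 8 HSC arrays, 3 of the 12 (Xcr1, Irf4 and Clec10a) lay below the lower quartile of genes, 2 (Tcf4 at 9.03 to 9.74 and Ccr7 at 8.24 to 9.04) lay above the median, and the other 7 lay between or varied. Of 11 B cell markers 0 were called between these groups, and 1 had an unadjusted p under 0.05 in limma. On all HSC arrays 4 (Cd79a, Ebf1, Fcer2a and Ms4a1) lay below the lower quartile and 1, Cd79b, lay above the median, at 7.91 to 8.55 in young HSC and 8.46 to 8.80 in young GMP. The other 6, Pax5 among them, lay between or varied. Of 12 macrophage and monocyte markers 7 were called lower in young HSC than in young GMP and 0 higher. On all HSC arrays 2 of these (Adgre1 and C1qc) lay below the lower quartile and 1 (Cd68, at 7.57 to 8.05) above the median, and the other 9 lay between or varied.

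With age in HSC, 1 of 12 dendritic cell markers was called higher (Clec9a, by 1.45, adjusted p = 0.00470). Of 11 B cell markers 1 was called higher (Pou2af1, by 0.50, adjusted p = 0.0295). Of 12 macrophage and monocyte markers 0 were called (1 at an unadjusted p under 0.05 in limma). Of all genes, 11.5% were called with age in HSC and 9.22% called lower. The dendritic cell list mean was 6.75 to 6.89 in old HSC. The lower quartile of genes was 6.28 to 6.47 on these arrays and 6.11 to 6.36 on the young HSC arrays, and its part in this mean was not tested. Single markers are named here after their values were seen. They give no zero on an array, and what part such cells had in the class II values was not tested.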

How the data were processed

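Values were the log2 expression of 23309 probe sets on 15 arrays as deposited by the authors. Per the submitters' processing notes they were made with RMA, affy and limma, without versions. A genome build is not given in the sources used here. All array columns matched a sample by title.

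Genes were the 20728 probe sets with a single annotated symbol, the brightest kept for each of 19296 genes. All 15 arrays entered 1 model of the 4 group means in limma 3.58.1 in R 4.3.3 (lmFit, eBayes, two-sided, Benjamini-Hochberg over all genes, threshold 0.05), checked on simulated data. The number of arrays limits the precision. The rule for naming genes took all members and, of each pathway list and comparison, up to 4 called genes by size of difference, or up to 2 where none was called, and the 5 most alike. The members and lists were chosen with earlier results of these data known. Replicate numbers from the titles paired young HSC with young GMP (correlation of deviations 0.16 to 0.52 in 4 of 4 pairs). Other groups were not taken as paired (1 of 3 pairs over 0.1 with age in HSC, 0 of 3 in GMP, 2 of 3 between the old groups). For old HSC and old GMP, at 0.05 to 0.42, pairing is not settled. The Y-linked mean used Kdm5d, Eif2s3y and Uty, since Ddx3y was not among the genes. Alternatives were quantile normalization, a filter on the dimmest 25% of genes, the mean of probe sets, array weights, array interquartile range or Y-linked mean as a covariate, a replicate block, arrays left out and only the groups compared.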

Additional observations from a re-analysis of the deposited data

Results flagged for a closer look

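Values far from the rest of their group were looked for in the groups of 5 and 4 young arrays, over the 10 genes and 37 named pathway genes. There were 21 of them in 94 sets of values, 13 of them in young HSC and 6 in young GMP on the array numbered 4. For independent normal values the rule flags about 1 in 20 sets. The genes share their arrays and were in part named by their differences, so the 21 cannot be set against that rate. In young HSC that array was low in Cd74 at 7.33 (nearest other array 8.68), H2-Aa at 8.37 (10.34), H2-Ab1 at 8.84 (10.41) and Tap1 at 8.05 (8.59). The pathway genes low on that array were Nfyb at 8.46, Rfx5 at 6.90, H2-M3 at 8.33, Mr1 at 7.71, Psmb9 at 11.58, Cd274 at 7.78 and Ifngr2 at 7.81. Nlrc5 at 11.19 and Cd80 at 6.51 were high there. On young GMP replicate 4, H2-DMa at 8.93 (nearest other 9.63), Tap1 at 7.84 (8.10), Nfyc at 8.12, Psmb10 at 9.01 and Ifngr1 at 11.06 were low and Cd80 at 6.71 was high. The remaining ones were H2-Oa at 7.74, high on young GMP replicate 3, and Nfya at 9.57, low on young HSC replicate 5.

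The age effect in HSC differed from that in GMP, by limma's test of the difference, for Cd86 (-1.51, adjusted p = 0.0464) and for Ctss (-1.53, adjusted p = 0.0257). Cd86 lay below the lower quartile of genes on all GMP and old HSC arrays, so the size of its difference is not exact. All 3 old HSC arrays were below all 5 young ones in both genes.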

How the results depend on the processing

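Counts are given for all genes, then for the 10 genes. With age in HSC (2213 and 2), quantile normalization gave 1310 genes, array weights 8966 and 6, the interquartile range as a covariate 105 and 1, the Y-linked mean 6588 and 4, only the groups compared 871, and leaving out both young arrays numbered 4 gave 6183 and 6. The filter on dim genes left 1 of the 10, since it removed Cd86. Leaving out 1 array gave 345 (old HSC replicate 2) to 5312 genes (young HSC replicate 4) and 2 to 6 of the 10. With age in GMP (0 and 0), array weights gave 832 and 3, the Y-linked mean 224 and 1, both arrays numbered 4 left out 188 and 2, and leaving out 1 array 0 to 12 genes and 0 of the 10. Between old HSC and old GMP (4292 and 2), array weights gave 7494 and 4, and leaving out 1 array 3272 to 4220 genes and 0 to 2. Between young HSC and young GMP (4741 and 7), leaving out 1 array gave 3919 to 5494 genes and 7 in each case. For the difference of the age effects (18 and 1), array weights gave 2407 and 7, the interquartile range 5 and 0, the filter on dim genes 0 of the 10, the Y-linked mean 32 genes, both arrays numbered 4 left out 145 and 4, and leaving out 1 array 1 to 192 genes and 0 to 3. The causes were not tested. Of single values of the 10 genes, 824 kept their side of the threshold, 21 lost and 40 gained a call, and 0 called values changed sign. Array weights ran from 0.251 (young HSC replicate 4) to 7.47 (old HSC replicate 1).

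With the replicate block, the young HSC and young GMP comparison, whose numbers pair, gave 5667 genes and 7 of the 10 and changed no call. In the others the numbers were not taken as pairs, which between the old groups is not settled. There age in HSC gave 6280 and 3, age in GMP 232 and 1, old HSC against old GMP 5052 and 2, and the difference of the age effects 41 and 1.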

Other observations

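Several antigen presentation genes were read by probe sets that carry more than 1 symbol, which were kept out of the tests. The probe set shared by H2-DMb1 and H2-DMb2, the beta chains that pair with H2-DMa, had a mean and SD of 8.80 ± 0.40 over the 5 young HSC arrays, 8.38 ± 0.12 over the 3 of old HSC, 8.58 ± 0.37 over the 4 of young GMP and 8.58 ± 0.33 over the 3 of old GMP. Its lowest readings were on young HSC replicate 4 (8.12) and young GMP replicate 4 (8.04). The classical class I heavy chains H2-K1 and H2-D1 share 2 probe sets. The brighter read 11.91 ± 0.12 in young HSC, 11.79 ± 0.19 in old HSC, 11.50 ± 0.24 in young GMP and 11.44 ± 0.07 in old GMP. The probe set of H2-Q6 and H2-Q8 read 10.98 to 11.38 in young HSC and 10.79 to 11.09 in old HSC, and 9.35 to 9.85 in young GMP and 9.73 to 9.81 in old GMP, so HSC and GMP arrays did not overlap at either age. That of H2-T23, which presents leader peptides of class I chains, lay at 9.31 to 9.86 in the 2 HSC groups and at 8.38 to 8.73 in the 2 GMP groups.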
